A study of Bos taurus with 6 samples.

Results

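Serpins are a superfamily of proteins of which most stop a serine or cysteine protease by offering it an exposed loop, being cut there and trapping the enzyme in a dead-end complex. Some members have lost this activity and work instead as a hormone carrier, a growth modulator or, in the case of SERPINH1, a collagen chaperone. The family is divided into clades by letter, with the secreted plasma inhibitors of the liver largely in clade A and the mostly intracellular serpins of epithelia and leukocytes in clade B. The serpins were followed here in rumen epithelial primary cells (REPC), in which RNA was measured with and without butyrate, a short-chain fatty acid of rumen fermentation and a histone deacetylase inhibitor. Members were chosen by name alone, as every row whose symbol began with SERPIN, a clade letter from A to I and a number. The choice gave 38 rows with 36 gene names among the 32183 rows of each expression table, because SERPINB2 and SERPINB10 were each listed at 2 positions. Of these rows, 37 with 35 names are described, and all counts, sums and orders below are over them.

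The REPC came from the rumen of 1 Holstein bull calf, 2 weeks old, fed milk replacer. The butyrate group held 3 cultures given 5 mM butyrate for 24 h, and the control group held 3 cultures without it, all on the same medium and cells. Since every culture came from 1 calf, p-values describe the spread between cultures and not between animals. Expression is given as FPKM, a fragment count scaled to transcript length and to library size, so levels can be compared between genes of different length. Summed over all rows, FPKM reached 678000 to 681900 in the control cultures and 619400 to 629000 in the butyrate cultures. The tables hold no read counts, but each FPKM has a lower and an upper confidence bound. For low rows these can be read as 2 standard errors of a count, and on that reading SERPING1 rested on about 8.51 to 181 fragments in a culture and SERPINF2 on no more than 2.89. Of 45 such serpin numbers above 0 and under 15, only 23 lay within 0.05 of a whole number, so the reading is rough. Fragment numbers below are such estimates.

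The labelled cell type was checked against marker genes. Of 15 epithelial markers, 12 had a mean FPKM of at least 1 in control, among them KRT8 at 1380, KRT5 at 400.8 and CDH1 at 49.8. Mesenchymal and contractile genes were also high, with control means of 2464 for VIM, 1149 for COL1A1 and 2752 for ACTA2, while FAP and PDGFRB were near 0. Of 6 endothelial markers, CDH5 was listed at 0 in all cultures and KDR, TEK and CLDN5 were at or near 0, while VWF and PECAM1 rose, and the list summed to 1.97 to 2.16 in control and 6.70 to 8.43 after butyrate. Of 5 leukocyte markers, PTPRC was listed at 0 and CD3E and CSF1R were at or near 0, while CD68 rose and CD14 had a control mean of 5.58, and the list summed to 5.12 to 7.15 and 7.23 to 9.48. The summed FPKM of the 15 epithelial markers was 2449 to 2556 in control and 5150 to 5262 after butyrate. Of these, 11 rose in the test described below, with KRT19 going from a mean of 492.3 to 1953, KRT8 to 1971 and KRT14 from 72.5 to 500. In the same test 32.5% of all tested rows rose and 25.9% fell. KRT5 fell to 355.9, and CDH1 and DSP had overlapping values. For 12 fibroblast markers the sum was 4458 to 4606 and 6492 to 6827, and for 5 smooth muscle markers 6468 to 6796 and 2849 to 3456. Of the 12 fibroblast markers 10 rose and none fell, so rises were not particular to the epithelial list. Of the smooth muscle markers 4 fell, while DES rose from a mean of 0.367 to 1.60. In bulk RNA, fewer cells of a type and less RNA per cell cannot be told apart, and the part of these shifts in the results below was not tested.

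Among the 37 rows, SERPINH1 and SERPINE2 had the highest levels. Summed over the 37 rows, serpin FPKM was 1205, 1244 and 1236 in the controls and 1289, 1346 and 1258 with butyrate (here and below in the order of replicates 1, 2 and 3). All butyrate cultures were above all control cultures. The sum was 0.181% ± 0.00253 (SD, n = 3) of all FPKM in control and 0.208% ± 0.00775 (SD, n = 3) after butyrate. SERPINH1 made up 58.3% ± 0.474 (SD, n = 3) of the control sum and 38.0% ± 2.85 (SD, n = 3) of the butyrate sum. SERPINE2 went the other way, from 21.5% ± 0.353 (SD, n = 3) to 38.3% ± 2.74 (SD, n = 3). Without these genes, the remaining rows summed to 249.2 ± 5.02 (SD, n = 3) in control and 308.2 ± 13.8 (SD, n = 3) after butyrate. Clade B made up 245.4 ± 4.43 (SD, n = 3) of this in control and 277.7 ± 9.29 (SD, n = 3) after butyrate, and the serpins outside it went from 3.80 ± 0.787 (SD, n = 3) to 30.4 ± 4.48 (SD, n = 3), mainly SERPING1 and SERPINI1.

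**Figure D1:**
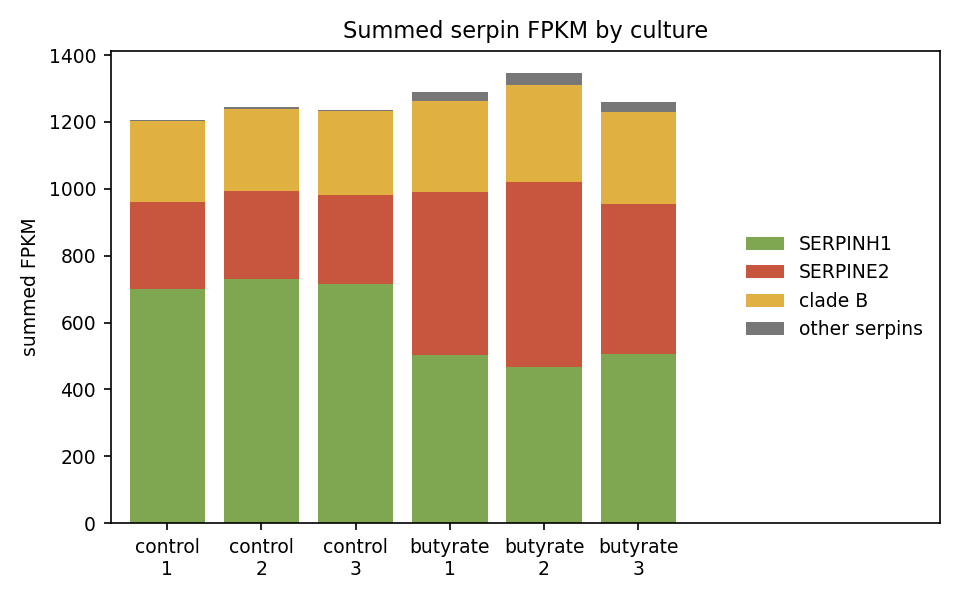
Summed FPKM (vertical axis) of the 37 serpin rows described, in each of the 6 cultures (horizontal axis), stacked by gene or group. The control cultures reach 1205 to 1244 and the butyrate cultures 1258 to 1346, and the SERPINH1 part shrinks from 58.3% to 38.0% of the sum while the SERPINE2 part grows from 21.5% to 38.3%.

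Of the 37 rows, 17 had a mean FPKM of at least 0.1 over the 6 cultures and were tested. The other 20 stayed at or below an FPKM of 0.268 in every culture. Among them, 13 were listed at 0 throughout and 7 had traces in at least 1 culture. Clade A, which holds the plasma inhibitors made by the liver, was the emptiest group. None of its 14 rows was tested, 11 were listed at 0 in all cultures, and the highest value in the clade was an FPKM of 0.134, that of SERPINA12 in butyrate replicate 2. The rows at 0 were SERPINA3, SERPINA3-1, SERPINA3-3, SERPINA3-7, SERPINA3-8, SERPINA4, SERPINA5, SERPINA6, SERPINA7, SERPINA11 and SERPINA14, with SERPINB7 and SERPINI2 outside the clade. The traces were those of SERPINA1, SERPINA10, SERPINA12, SERPINB4, SERPIND1, the second SERPINB2 row and the first SERPINB10 row. Reads of the near-identical SERPINA3 copies could have been lost because only uniquely mapped reads were used, so a listing at 0 is not evidence of absence for them.

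The tested rows were ordered by level within each group. In control the order was SERPINH1, SERPINE2, SERPINB6, SERPINB8, SERPINB1, SERPINB2, SERPINB5 and SERPINB10, and the ranges of these neighbours did not overlap. SERPINI1, SERPINB9 and SERPING1 followed with overlapping ranges and means between 1.40 and 1.59. After butyrate, SERPINE2 at 497.3 ± 52.8 (SD, n = 3) and SERPINH1 at 492.0 ± 20.9 (SD, n = 3) overlapped. SERPINB1, SERPINB8 and SERPINB5 formed another overlapping run, and the means of SERPING1 and SERPINI1 were above that of SERPINB10, although the ranges of SERPINI1 and SERPINB10 overlapped. Of the 16 neighbouring pairs in the order, 7 overlapped in control and 9 after butyrate. Among all 32183 rows, SERPINH1 held rank 155 by mean FPKM in control and rank 199 after butyrate, and SERPINE2 moved from rank 509 to rank 196.

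**Figure D2:**
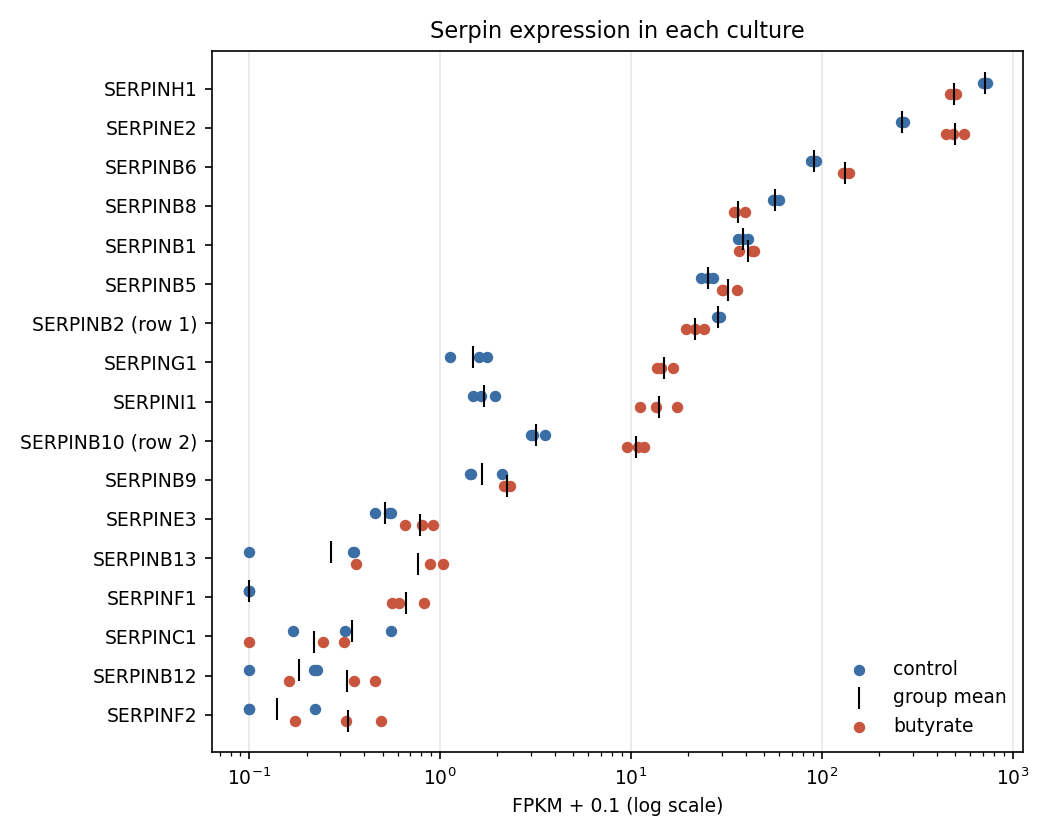
FPKM + 0.1 on a log axis (horizontal) for the 17 tested serpin rows (vertical), with each culture as a point (blue control, red butyrate) and a black tick at the mean FPKM of the group plus 0.1. SERPING1 and SERPINI1 lie near 1 to 2 in control and between 11.0 and 17.4 after butyrate, whereas SERPINH1 and SERPINB8 sit lower after butyrate. Row 1 of SERPINB2 is the entry beside SERPINB8, and row 2 of SERPINB10 is the entry in the distal clade B cluster.

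Whether butyrate changed the serpins was tested with limma on log2(FPKM + 0.1) over all 15813 rows that passed the level filter, in 2 tiers. A change was called at a Benjamini-Hochberg adjusted p under 0.05, and a differentially expressed gene (DEG) at a Bonferroni-adjusted p under 0.05 with a log2 fold change beyond 2, the thresholds of the study. At the first tier 7 of the 17 serpin rows rose (41.2%, against 32.5% of all tested rows) and 3 fell (17.6%, against 25.9%), which with 17 rows is not far from the background. The other 7 did not pass. At the second tier, SERPING1 and SERPINI1 were upregulated DEGs (11.8%, against 2.46%). No serpin row was a downregulated DEG in limma (1.51% of all tested rows were), and none fell beyond 2 on the log2 scale even at an unadjusted p under 0.05. The median log2 fold change was 0.60 over the 17 rows and 0.10 over all tested rows. SERPINF1, SERPINF2 and SERPINB12 had control means under 0.1 and passed the filter through their butyrate values, so these counts and medians only describe the family.

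**Figure D3:**
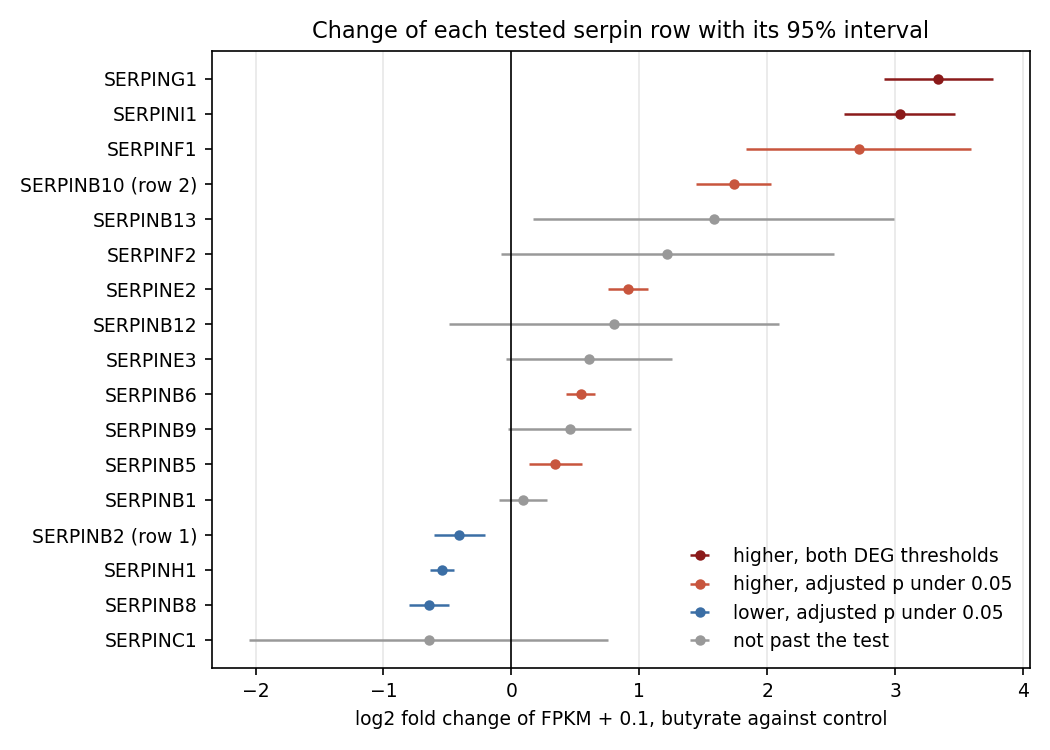
Log2 fold change of FPKM + 0.1 (horizontal axis) for each tested serpin row (vertical axis), with points for the limma estimate and bars for its 95% interval. SERPING1 at 3.34 and SERPINI1 at 3.03 passed both DEG thresholds, and SERPINB8 at -0.64 is the lowest of those that passed. The widest intervals belong to rows with few fragments, such as SERPINC1 and SERPINB13.

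The serpins that restrain plasminogen activators, the enzymes that cut plasminogen to the active protease plasmin, were read first. SERPINE2, or protease nexin-1, inhibits thrombin and both plasminogen activators, is bound to the cell surface and matrix, and lies on chromosome 2 from 112869806 to 112940143 in UMD3.1 (positions as listed). Its FPKM was 260.2, 261.9 and 268.4 in control and 489, 554 and 449 after butyrate. Every butyrate culture was above every control culture, with a wider spread after butyrate. Among all tested rows, 36.1% had butyrate values all above the controls and 28.9% had them all below. The rise was 1.89-fold (log2 fold change 0.91 ± 0.069 SE, limma, Benjamini-Hochberg adjusted p = 8.04e-06).

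SERPINI1, neuroserpin, is a secreted inhibitor best known from neurons, where its main target is the tissue-type activator PLAT. It lies on chromosome 1 from 100455777 to 100539425. Its FPKM was 1.55, 1.85 and 1.38 in control and 11.0, 17.4 and 13.4 after butyrate, on about 21.6 to 27.6 and 165 to 250 fragments. The lowest butyrate culture was far above the highest control. The rise was 8.74-fold with a log2 fold change of 3.03 ± 0.19 (SE, limma, Bonferroni-adjusted p = 0.00228). The DEG call was lost without butyrate replicate 1, 2 or 3 and without control replicate 1 or 3, with Bonferroni-adjusted p values from limma of 0.0729, 0.129, 0.286, 0.148 and 0.0921, while the log2 fold change stayed between 2.86 and 3.19 with each culture left out.

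SERPINE3, a little studied member on chromosome 12 from 20856121 to 20887977, had a mean FPKM of 0.417 ± 0.0533 (SD, n = 3) in control and 0.690 ± 0.130 (SD, n = 3) after butyrate, and did not pass (limma, Benjamini-Hochberg adjusted p = 0.0983). Its direction turned under quantile normalization, with a log2 fold change of -0.091, and it passed as a rise without the trend (limma, Benjamini-Hochberg adjusted p = 0.0207). It rested on about 6.88 to 9.52 fragments in control and 5.59 to 8.28 after butyrate, so the higher FPKM came without more fragments. The row overlaps INTS6, whose mean was 7.95 in control and 4.36 after butyrate, and the sources used here do not state that counting used strand, so reads of the overlap cannot be assigned with certainty.

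**Figure D4:**
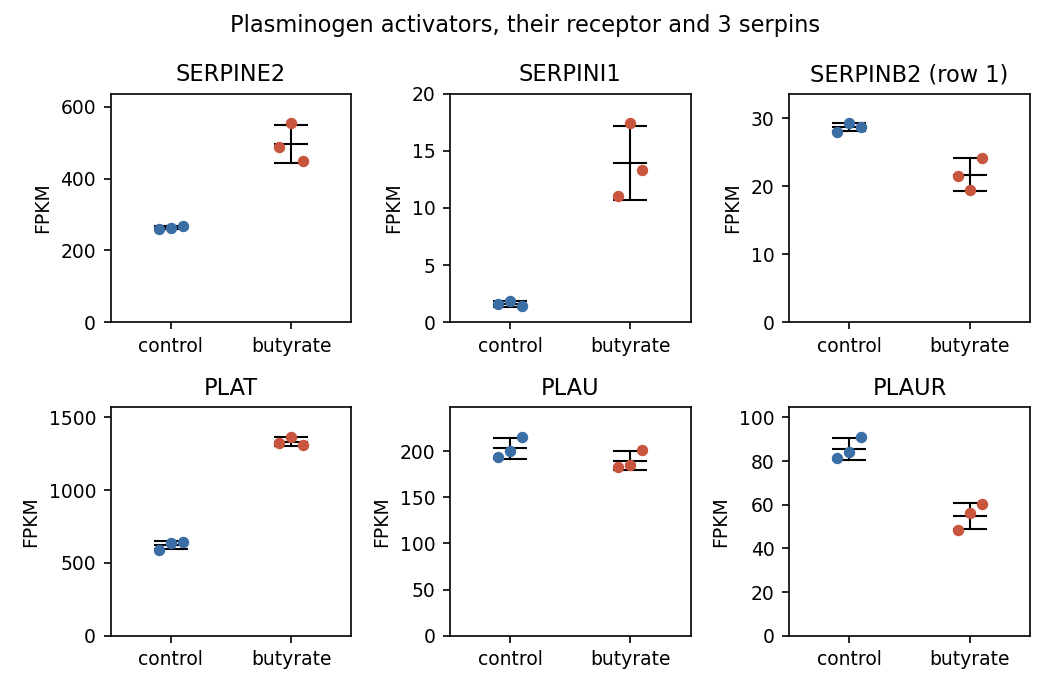
FPKM (vertical axes, each from 0) of SERPINE2, SERPINI1 and row 1 of SERPINB2, of the plasminogen activators PLAT and PLAU and of the receptor PLAUR in control and butyrate cultures. Points are cultures and black marks are the mean and SD of 3 cultures, with SERPINE2, SERPINI1 and PLAT higher, SERPINB2 and PLAUR lower, and PLAU overlapping between the groups.

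The proteases on the other side of this balance were read beside them. PLAT rose from 622.5 ± 29.0 (SD, n = 3) to 1333 ± 30.1 (SD, n = 3), for which limma gave a log2 fold change of 1.10 (Benjamini-Hochberg adjusted p = 1.91e-07). PLAU, the urokinase-type activator, had overlapping values of 193 to 216 in control and 183 to 202 after butyrate and did not pass (limma, Benjamini-Hochberg adjusted p = 0.175). Its receptor PLAUR fell from 85.6 ± 5.00 (SD, n = 3) to 54.8 ± 6.07 (SD, n = 3) (limma, Benjamini-Hochberg adjusted p = 0.000225). The ratio of SERPINI1 to PLAT within a culture, which a single scaling factor per culture leaves unchanged, was small and higher after butyrate, from 0.00216 to 0.00290 in control to 0.00831 to 0.0127 after butyrate. It separated the groups completely (two-sided exact permutation test, p = 0.1, the lowest value 3 against 3 cultures can reach, and 0.15 after Benjamini-Hochberg adjustment over the 3 ratios tested). Since SERPINI1 rose far more than PLAT in every culture, the ratio had to separate the groups, and its p adds no support. SERPINE2, the far more abundant inhibitor of PLAT, had a lower log2 fold change than PLAT, 0.91 against 1.10. Its ratio to PLAT was not tested, so the SERPINI1 ratio does not describe the inhibitors of PLAT as a whole. Plasminogen itself, PLG, and the adhesive plasma protein VTN were listed at 0 in all cultures.

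Over the whole list of plasminogen and clotting genes, 18 of 22 were tested, 8 rose (44.4%, against 32.5% of all tested rows), 3 fell (16.7%, against 25.9%) and 7 did not pass, with a median log2 fold change of 0.29. The largest changes were rises of F2R, the thrombin receptor, with a log2 fold change of 2.06, and of VLDLR, an endocytic receptor for complexes of serpins and proteases, with 1.17. LRP1, the other main receptor for such complexes, had means of 24.8 ± 2.62 (SD, n = 3) and 28.6 ± 2.11 (SD, n = 3) and did not pass (limma, Benjamini-Hochberg adjusted p = 0.0836). It passed as a rise after rescaling to TPM and under quantile normalization (limma, Benjamini-Hochberg adjusted p = 0.015 and 0.0425).

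SERPING1 showed the largest rise of the family. It is the C1 inhibitor, the plasma serpin that restrains the complement proteases C1R and C1S, and it also inhibits plasma kallikrein. On chromosome 15 from 82158676 to 82172144, its FPKM was 1.03, 1.66 and 1.50 in control and 14.3, 16.5 and 13.6 after butyrate. The groups lay far apart, and no confidence bounds of a control and a butyrate culture touched. The mean rose 10.6-fold from 1.40 ± 0.330 (SD, n = 3) to 14.8 ± 1.55 (SD, n = 3), for which limma gave a log2 fold change of 3.34 ± 0.19 (SE, Bonferroni-adjusted p = 0.000893). The control values rested on about 8.51 to 13.8 fragments. The DEG call was lost when butyrate replicate 1, 2 or 3 was left out, with Bonferroni-adjusted p values from limma of 0.172, 0.206 and 0.119, and kept when a control was left out, while the log2 fold change stayed between 3.14 and 3.46. Without the mean-variance trend the call was lost for SERPING1 and SERPINI1 alike (Bonferroni-adjusted p from limma of 0.0986 and 0.197).

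The target proteases of SERPING1 were higher as well. C1S rose from 0.926 ± 0.364 (SD, n = 3) to 9.69 ± 2.23 (SD, n = 3), for which limma gave a log2 fold change of 3.30 (Benjamini-Hochberg adjusted p = 2.04e-05). C1R rose from 0.245 ± 0.233 (SD, n = 3) to 1.17 ± 0.439 (SD, n = 3), for which limma gave a log2 fold change of 2.03 (Benjamini-Hochberg adjusted p = 0.00629). The ratio of SERPING1 to C1S within a culture was 0.819, 1.68 and 2.81 in control and 1.88, 1.38 and 1.43 after butyrate, and the groups overlapped (two-sided exact permutation test, p = 1). Of the 18 complement genes listed, 13 were tested, 8 rose (61.5%, against 32.5% of all tested rows), none fell (against 25.9%) in limma, also at an unadjusted p under 0.05, and 5 did not pass, with a median log2 fold change of 0.75. C3, the central component, and CFB, a protease of the alternative pathway, rose from control means of 0.242 and 0.471 with log2 fold changes of 3.45 and 3.11 (limma, Benjamini-Hochberg adjusted p = 9.89e-06 and 5.88e-06). C1S, C3 and CFB passed the DEG thresholds with all cultures (limma, Bonferroni-adjusted p = 0.039, 0.015 and 0.00744). C1S and C3 did not pass them without the trend, without the level filter, with pseudocount 0.01 or with the replicate block, and CFB was not followed under the alternatives. C1S also missed them under quantile normalization (limma, Bonferroni-adjusted p = 0.0513), and C3 with pseudocount 1, where its log2 fold change was under 2. With 1 culture left out the DEG call was lost for C1S in every case (0.133 to 1) and for C3 in all but that without control replicate 2 (0.146 to 1). C2, the protease that C1S activates, was at 0.266, 0 and 0.214 in control and had a log2 fold change of 3.28 (limma, Benjamini-Hochberg adjusted p = 0.000427). The log2 fold changes of C2 and C3 depended on the pseudocount, being 4.63 and 3.89 with 0.01 and 1.42 and 1.87 with 1. The 3 chains of C1q, which recruit C1R and C1S, were listed at 0.

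The other plasma-type serpins were barely measurable. SERPINF1, or pigment epithelium-derived factor, is a secreted member without inhibitory activity that is known to restrain blood vessel growth. On chromosome 19 from 23418895 to 23430668, it was listed at 0 in all 3 controls and at 0.508, 0.463 and 0.724 in butyrate replicates 1 to 3, which correspond to about 5, 5 and 7 fragments. It is counted among the 7 rows that rose, but it entered the test only through its butyrate values and against a group at 0, so its p is not given as support and no fold is given. Its fitted log2 fold change depended on the pseudocount, being 2.71 with 0.1, 5.82 with 0.01 and 0.64 with 1. SERPINF2, the plasmin inhibitor alpha-2-antiplasmin, lies 7626 bases away and had values of 0, 0 and 0.120 in control and of 0.222, 0.392 and 0.0749 after butyrate. The groups overlapped and it did not pass (limma, Benjamini-Hochberg adjusted p = 0.0964), except as a rise without butyrate replicate 3 (0.0382). SERPINC1, antithrombin, had means of 0.246 ± 0.192 (SD, n = 3) and 0.120 ± 0.110 (SD, n = 3) on at most about 6 fragments a culture and did not pass either (limma, Benjamini-Hochberg adjusted p = 0.389). Under quantile normalization alone SERPINC1 passed as a fall (limma, Benjamini-Hochberg adjusted p = 0.048). SERPIND1, heparin cofactor II, was below the filter, at 0 to 0.170 in control and 0 to 0.0538 after butyrate.

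SERPINH1, also called HSP47, is a resident of the endoplasmic reticulum that holds procollagen in its folded triple helix and inhibits no protease. On chromosome 15 from 55514869 to 55525178, it had an FPKM of 702, 731 and 714 in control and of 502, 468 and 506 after butyrate. The groups did not overlap. The mean fell from 715.6 ± 14.6 (SD, n = 3) to 492.0 ± 20.9 (SD, n = 3), for which limma gave a log2 fold change of -0.54 ± 0.041 (SE, Benjamini-Hochberg-adjusted p = 7.93e-06). The log2 fold change was -0.42 after rescaling to TPM and -0.24 under quantile normalization. The confidence bounds gave about 2620 to 2700 fragments in control and 2380 to 2560 after butyrate, a smaller fall than that of FPKM. That reading was made for low rows and is not scaled to library size, and the cause of the difference was not tested. Over the same cultures COL1A1 rose, and the ratio of SERPINH1 to COL1A1 went from 0.633, 0.627 and 0.609 to 0.249, 0.258 and 0.254. SERPINH1 was lower and COL1A1 higher in every butyrate culture, so the ratio had to separate the groups. Its p therefore adds no support (two-sided exact permutation test, p = 0.1, the lowest reachable, and 0.15 after Benjamini-Hochberg adjustment over the 3 ratios tested). COL1A1 had a log2 fold change of 0.76, and the fibrillar collagens COL1A2 and COL3A1 rose less, with 0.21 and 0.24.

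Of the collagen folding genes that work beside SERPINH1, 17 were tested. Of these, 8 rose (47.1%, against 32.5% of all tested rows), 6 fell (35.3%, against 25.9%) and 3 did not pass, with a median log2 fold change of 0.08. Rises included P4HA3, a subunit of the enzyme that hydroxylates proline, at a log2 fold change of 3.19 from a control mean of 0.283, PLOD2, a lysyl hydroxylase, at 0.98 and P3H2, a prolyl 3-hydroxylase, at 0.88. The log2 fold change of P4HA3 depended on the pseudocount, being 3.65 with 0.01 and 1.68 with 1. PPIB, the prolyl isomerase of the same compartment, fell with SERPINH1, from 915.8 ± 4.97 (SD, n = 3) to 721.0 ± 22.0 (SD, n = 3), for which limma gave a log2 fold change of -0.35 (Benjamini-Hochberg adjusted p = 4.17e-05).

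The clade B serpins mostly act inside cells. Of their 13 rows, 9 were tested, 3 rose (33.3%), 2 fell (22.2%) and 4 did not pass, shares near the 32.5% and 25.9% of all tested rows. Their summed FPKM was 240.5 to 249.1 in control and 271.0 to 288.3 after butyrate. SERPINB6, a broad cytosolic inhibitor of cathepsin G and other serine proteases, was the most abundant of the clade and lies on chromosome 23 from 50603335 to 50617622. Its FPKM was 87.8, 93.5 and 92.0 in control and 130.1, 138.9 and 128.6 after butyrate, without overlap. The rise was 1.46-fold with a log2 fold change of 0.54 ± 0.050 (SE, limma, Benjamini-Hochberg-adjusted p = 2.67e-05). Its neighbours on chromosome 23 did not pass. SERPINB9, the granzyme B inhibitor, was 2.01, 1.33 and 1.35 in control and 2.12, 2.07 and 2.23 after butyrate, where control replicate 1 lay close to the butyrate cultures (limma, Benjamini-Hochberg adjusted p = 0.0937, and 0.0241 without control replicate 1). After rescaling to TPM, SERPINB9 passed as a rise (limma, Benjamini-Hochberg adjusted p = 0.0439). SERPINB1, the inhibitor of neutrophil elastase, had overlapping values around 38.6 ± 2.27 (SD, n = 3) and 41.2 ± 3.90 (SD, n = 3), and the 95% interval of its log2 fold change ran from -0.099 to 0.28.

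The remaining clade B genes lie on chromosome 24 at 2 sites far apart. At the proximal site, SERPINB8 and an entry named SERPINB2 both fell. SERPINB8, which can inhibit the proprotein convertase furin, lies from 12694111 to 12716335 and had an FPKM of 55.9, 55.3 and 59.5 in control and of 34.8, 34.9 and 39.6 after butyrate. The log2 fold change was -0.64 ± 0.069 (SE, limma, Benjamini-Hochberg-adjusted p = 6.06e-05). The SERPINB2 entry from 12747968 to 12765314, plasminogen activator inhibitor 2 by name, went from 28.0, 29.3 and 28.7 to 21.5, 19.4 and 24.2, with a log2 fold change of -0.41 ± 0.087 (SE, limma, Benjamini-Hochberg-adjusted p = 0.00371). In both genes the groups did not overlap.

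At the distal site, SERPINB10 and SERPINB5 rose. SERPINB10, bomapin, is known from blood cells of the bone marrow. Its entry from 62615457 to 62639245 had an FPKM of 3.44, 2.90 and 2.97 in control and of 9.43, 11.6 and 10.8 after butyrate. Its rise of 3.41-fold was the largest of the clade among those that passed, with a log2 fold change of 1.74 ± 0.13 (SE, limma, Benjamini-Hochberg-adjusted p = 6.67e-06), under the fold threshold for a DEG. SERPINB5, maspin, an epithelial serpin that does not inhibit proteases, lies from 62248829 to 62274659. It rose from 26.8, 25.4 and 23.3 to 29.8, 35.9 and 30.4, without overlap of the groups but with overlapping confidence bounds, and its log2 fold change was 0.34 ± 0.091 (SE, limma, Benjamini-Hochberg-adjusted p = 0.0109).

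SERPINB12 and SERPINB13, which lie between SERPINB5 and SERPINB10, are serpins of stratified epithelia and were near the detection limit. SERPINB13 was 0, 0.256 and 0.250 in control and 0.262, 0.937 and 0.792 after butyrate, on at most about 11 fragments (limma, Benjamini-Hochberg adjusted p = 0.0545). It passed without butyrate replicate 1 (limma, Benjamini-Hochberg adjusted p = 0.0375) and under 3 of the other alternatives. SERPINB12 had overlapping values of 0 to 0.127 and 0.0624 to 0.358 and did not pass (limma, Benjamini-Hochberg adjusted p = 0.253). Its direction turned under quantile normalization, with a log2 fold change of -0.061.

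SERPINB2 and SERPINB10 each had 1 expressed and 1 nearly silent entry, at opposite sites. The distal SERPINB2 entry, from 62591367 to 62609170, was listed at 0 in all controls and at 0.0448, 0.268 and 0.0907 after butyrate. The proximal SERPINB10 entry, from 12717906 to 12733349, was at 0 in 5 cultures and at 0.0515 in butyrate replicate 2. A later RefSeq gene table of cattle, for the assembly ARS-UCD2.0, lists 1 gene of each name. Copies that share a name can share or split reads, so the identity of the expressed entries is uncertain.

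Of the proteases that serpins of clade B and their relatives can meet in epithelia, 22 listed genes were found and 13 were tested. Of these, 4 rose (30.8%) and 3 fell (23.1%), near the 32.5% and 25.9% of all tested rows, and 6 did not pass, with a median log2 fold change of 0.056. ST14, matriptase, rose from 0.445 ± 0.244 (SD, n = 3) to 2.06 ± 0.239 (SD, n = 3), for which limma gave a log2 fold change of 2.07 (Benjamini-Hochberg adjusted p = 0.000642). CTSS, the lysosomal cathepsin S, fell from 10.8 ± 0.682 (SD, n = 3) to 4.52 ± 0.477 (SD, n = 3), for which limma gave a log2 fold change of -1.24. GZMA, granzyme A, had a log2 fold change of -1.55 from a control mean of 0.480. GZMB, the target of SERPINB9, and CASP1 were listed at 0, and the furin gene, whose product SERPINB8 can inhibit, had overlapping values (Benjamini-Hochberg adjusted p = 0.262).

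Protease inhibitors outside the serpin family were compared from a list of 25 genes. Of 17 tested, 10 rose (58.8%, against 32.5% of all tested rows), 1 fell (5.88%, against 25.9%) and 6 did not pass, with a median log2 fold change of 0.99. WFDC1 and KAZALD1, both among the 10, and PI15 had control means under 0.1 and passed the filter through their butyrate values. The median is the value of PI15, so these shares and the median only describe the list. CST6, cystatin E/M, an epithelial inhibitor of cysteine proteases, rose from 23.9 ± 7.92 (SD, n = 3) to 365.2 ± 72.1 (SD, n = 3), for which limma gave a log2 fold change of 3.96 (Benjamini-Hochberg adjusted p = 1.17e-06). A2M, alpha-2-macroglobulin, rose from 3.34 ± 0.561 (SD, n = 3) to 23.1 ± 4.10 (SD, n = 3), for which limma gave a log2 fold change of 2.75 (Benjamini-Hochberg adjusted p = 1.87e-06). Both passed the DEG thresholds with all cultures (limma, Bonferroni-adjusted p = 0.000715 and 0.00151), but not without the trend (0.227 and 0.204), and with 1 culture left out CST6 kept the call only without control replicate 2 and A2M only without control replicate 3. WFDC1, a small secreted protein with a whey acidic protein domain, was at 0, 0 and 0.161 in control with a butyrate mean of 1.01. It was tested only through its butyrate values, and its log2 fold change depended on the pseudocount, being 2.93 with 0.1, 5.21 with 0.01 and 0.91 with 1. Over all 5 lists, 38 of 78 tested genes rose and 13 fell, where 32.5% and 25.9% of all tested rows did. HPN and KLK6 of the protease list also passed the filter only through their butyrate values, so these counts too only describe the lists.

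**Figure D5:**
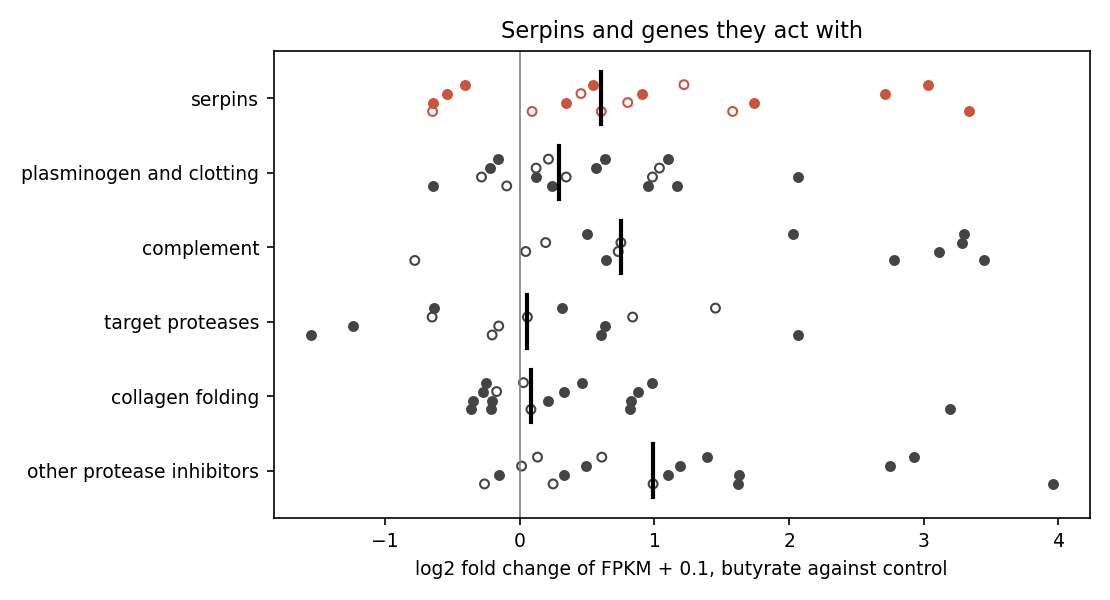
Log2 fold change of FPKM + 0.1 (horizontal axis) of the tested serpin rows (red) and of the tested genes of 5 lists of genes they act with (dark grey), 1 list per line. Filled points passed the test at a Benjamini-Hochberg adjusted p under 0.05, open points did not, and black ticks are medians, 0.60 for the serpins, 0.29 for plasminogen and clotting, 0.75 for complement, 0.056 for target proteases, 0.08 for collagen folding and 0.99 for other protease inhibitors.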

How the data were processed

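RNA was sequenced from 3 butyrate and 3 control cultures of REPC. According to the methods and processing notes, the authors trimmed reads with Trim Galore 0.4.1, aligned them with STAR (build UMD3.1), and kept uniquely mapped reads. The deposited values are FPKM per gene, made by the authors with Cufflinks, each with confidence bounds. Rows were joined by position and name, and 2 rows with a failed estimate were left out. Sequences were assigned to chromosomes through 1139 genes that share a name and position with the study's gene tables. The test was that of limma 3.58.1 (R 4.3.3) with its trend option, applied to log2(FPKM + 0.1) for the 15813 rows with a mean FPKM of at least 0.1, two-sided. A fold change on this scale understates the change of low genes. The fit was tested on simulated data. Ratios were compared by exact permutation in scipy 1.17.1. No count model was applied, since FPKM are not counts.

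The members and lists were chosen with earlier results of these data known. Of the 38 serpin rows and of the leukocyte markers, 1 each is not reported here. These rows stayed in the fit over all rows and entered no count, sum, order or ratio of their group. Named genes are every other serpin row, the 3 largest changes past the test in each of 5 hand-written lists, and PLAU, PLAT, PLAUR, LRP1, C1R, C1S, PPIB and ST14. INTS6, CFB, COL1A1, COL1A2, COL3A1, the furin gene, PDCD10, UBE2L6, GDPD5 and genes listed at 0 were named after their values were seen. The alternatives were other pseudocounts, filters, scalings and thresholds, no trend, a replicate block, failed estimates kept and each culture left out. The epigenomic data were not used here.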

Additional observations from a re-analysis of the deposited data

How the results depend on the processing

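The 10 serpin rows that passed the test kept direction and call in all 149 fits run over 15 alternative settings, SERPINF1 having no value among rows with a mean FPKM of at least 1. Of 100 such fits for the 7 rows that did not pass, 9 passed and 2 turned direction, SERPINE3 at -0.091 and SERPINB12 at -0.061, both under quantile normalization. Rescaling to TPM moved the median log2 fold change of all rows by 0.12 and quantile normalization by -0.11. PLAU, at -0.098, turned to 0.026 and 0.055 under these scalings. Upregulated serpin DEGs went from 2 to 0 without the trend and numbered 0 to 2 when 1 culture was left out. Partner genes that fell went from 13 to 7 after rescaling to TPM and 8 without the trend. The causes were not tested. The log2 ratio of group means, chosen after seeing the data, turned no direction but moved SERPINF2 from 1.22 to 2.52, C3 from 3.45 to 3.88, GZMA from -1.55 to -2.36 and WFDC1 from 2.93 to 4.24.

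The correlations of deviations between same-numbered cultures were 0.0228, -0.00431 and 0.00177, so the replicate numbers were not treated as pairs, and only number 1 correlated best with its own number. With the replicate block, 8 serpin rows rose and 3 fell, SERPINB13 passing in addition (limma, Benjamini-Hochberg adjusted p = 0.0101), and 2 remained the number of upregulated DEGs. Rows below an FPKM of 1 rested on few fragments, which limits what could be detected in them.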

Other observations

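The nearest genes of some serpins were read as well, after the values were seen. PDCD10, listed 766 bases above SERPINI1, is known in mammals to share a divergent promoter with it. Its FPKM was 68.1, 64.3 and 62.7 in control and 52.0, 56.4 and 59.2 after butyrate (log2 fold change -0.22, limma, Benjamini-Hochberg adjusted p = 0.0164), so on the FPKM scale the neighbours moved in opposite directions. PDCD10 was not followed under the alternative settings, of which rescaling to TPM moved the median log2 fold change of all rows by 0.12. UBE2L6, a conjugating enzyme for the ubiquitin-like protein ISG15, is the next row below SERPING1 at a distance of 20506 bases and rose with it, from a mean of 2.24 to 9.27 (log2 fold change 2.01, limma, Benjamini-Hochberg adjusted p = 6.13e-06). GDPD5, 31325 bases below SERPINH1, went from 6.15 to 20.4 (log2 fold change 1.72, limma, Benjamini-Hochberg adjusted p = 1.46e-06), whereas SERPINH1 fell.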
